A study of Homo sapiens with 8 samples.

Results

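The genes described here are 6 genes of lipid and amino acid metabolism, ACSM3, MSMO1, GLUL, SLC7A11, SLC25A48 and SLC25A29, taken by name from a deposited table of 1950 genes. All 6 were found in it. The table came from RNA sequencing of K562, a long-established cell line from a human chronic myeloid leukemia. There were 4 libraries, called extract 1 to 4, from K562 cells given 80 µg/mL of CPM (Caulis Polygoni Multiflori, a plant extract) over 3 days. They were set against 4 libraries from K562 cells without CPM, called control 2 to 5 after their titles. The treatment label of the controls says only that they had no CPM and gives no time, while the protocol text of every sample, controls included, describes the treated cells. Culture time and extract therefore cannot be told apart. No label ties the libraries to separate cultures. The p-values therefore take in no more than the variation among these 8 libraries, and that may be technical.

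The table holds only genes that the authors' own comparison of these libraries had picked, and the 6 genes were in turn chosen by their expression values and fold changes in these same libraries. Every listed gene had a p-value of 0.0499 or less and a fold change of at least 1.5 in the authors' deposited table. The differences of the 6 genes between extract and control are therefore a description. Where limma calls of them are counted, they are no independent evidence. No source used here gives the unit of the expression values, so levels are compared between libraries, and those of different genes are not compared per length. The values are not read counts, so the depth is unknown. Of 15 markers of K562 and erythroid cells, HBZ was in the table, at 4951.9 to 5306 in extract libraries and 2834.06 to 2920.21 in control libraries, and the rest were not analysed here.

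The 6 genes cover several steps by which a cell builds, imports and burns lipids and amino acids. Fatty acids must be joined to coenzyme A before a mitochondrion can oxidize them, and sterols are made in the endoplasmic reticulum by a long chain of enzymes under the control of the transcription factor SREBP2. Glutamine is made from glutamate and ammonia, cystine enters the cell in exchange for glutamate and feeds the synthesis of glutathione, and carriers of the SLC25 family move metabolites across the inner mitochondrial membrane. In many cancer cell lines, cystine import is known for its part in protection from lipid peroxidation.

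Promoter sequence was at hand for 4 of the 6 genes, from RefSeq on GRCh38.p14, as windows from 250 bases before to 50 bases from the annotated start. Windows of 3 genes are shown because they differ in the direction of the gene and share the CCAAT box, a motif bound by the factor NF-Y. They are MSMO1 (chr4:165327419-165327718, + strand), GLUL (chr1:182391741-182392040, − strand) and SLC25A29 (chr14:100306395-100306694, − strand). Capitals mark CCAAT, or ATTGG where it lies on the other strand.
MSMO1: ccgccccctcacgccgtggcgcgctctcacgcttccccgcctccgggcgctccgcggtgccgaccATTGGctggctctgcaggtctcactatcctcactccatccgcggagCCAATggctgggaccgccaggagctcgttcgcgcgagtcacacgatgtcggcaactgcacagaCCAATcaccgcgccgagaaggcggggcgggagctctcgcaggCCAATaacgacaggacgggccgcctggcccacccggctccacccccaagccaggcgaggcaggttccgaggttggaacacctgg
GLUL: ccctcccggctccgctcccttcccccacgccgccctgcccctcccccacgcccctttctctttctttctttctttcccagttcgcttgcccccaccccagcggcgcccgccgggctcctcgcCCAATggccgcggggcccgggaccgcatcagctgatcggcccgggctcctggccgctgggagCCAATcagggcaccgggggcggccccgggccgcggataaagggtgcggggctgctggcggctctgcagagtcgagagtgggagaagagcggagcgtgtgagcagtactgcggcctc
SLC25A29: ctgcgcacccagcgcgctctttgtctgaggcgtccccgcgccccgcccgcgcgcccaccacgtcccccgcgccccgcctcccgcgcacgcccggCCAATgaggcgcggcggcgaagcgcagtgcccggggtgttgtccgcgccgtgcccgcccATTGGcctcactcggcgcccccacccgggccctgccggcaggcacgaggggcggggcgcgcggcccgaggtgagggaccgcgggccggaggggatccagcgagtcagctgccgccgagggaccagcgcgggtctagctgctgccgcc

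The MSMO1 window held 4 CCAAT boxes, with first bases at −185, −139, −76 and −34 from the start, the first of them on the other strand. At least 4 were found in 0.991% of all 35116 promoter windows of this length. The GLUL window held 2, at −128 and −66, and the SLC25A29 window 2, at −156 and −97, and 10.8% of all windows held at least 2. The second GLUL window and both SLC25A48 windows held 0 CCAAT boxes, and 34.6% of all windows held at least 1. So the gene with higher RNA and 2 of the genes with lower RNA shared the motif. A sterol regulatory element of the LDL receptor type (TCACNCCAC, 1.13% of all windows), the core of the antioxidant response element (TGACNNNGC, 13.3%), the palindromic E-box (CACGTG, 7.26%), the core of the ATF4 composite element (TGATGNAA, 3.62%) and a TATA box (TATAAA, 11.5%) were searched on both strands. None of these motifs occurred in any window of the 4 genes. ACSM3 and SLC7A11 had no window, so the search says nothing about them. Only exact matches within 300 bases were sought, so a variant or more distant site would be missed. The GC content was 80.0% in the SLC25A29 window, 69.7% in that of MSMO1 and 72.7% in the GLUL window shown, against a median of 58.7% over all windows.

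MSMO1 codes for methylsterol monooxygenase 1, which takes methyl groups off sterol precursors on the way to cholesterol. It was the 1 gene of the 6 with more RNA in extract cells. Its expression value was 47.21, 46.98, 51.14 and 47.38 in extract 1 to 4 and 28.77, 27.91, 28.08 and 31.13 in control 2 to 5. All 4 extract libraries lay above all 4 control libraries, with extract 3 the highest and standing apart from the other extract libraries. The mean was 48.2 ± 1.98 in extract libraries and 28.97 ± 1.49 in control libraries (SD, n = 4 each), a 1.66-fold ratio of means. MSMO1 lies on chromosome 4 (165327623 to 165343160, GRCh38), and no other gene overlaps it in GENCODE 29.

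ACSM3 codes for a mitochondrial acyl-CoA synthetase that activates medium-chain fatty acids. Its value was 48.92, 53.07, 52.07 and 50.07 in extract 1 to 4 and 129.45, 132.15, 131.7 and 141.35 in control 2 to 5. Extract libraries were all lower and close together, and control 5 was the highest library. The mean was 51.0 ± 1.88 in extract libraries and 134 ± 5.26 in control libraries (SD, n = 4 each), so the control mean was 2.62 times the extract mean. The gap between the nearest libraries of the groups was 6.42 times the wider of the 2 within-group ranges, the widest gap of the 6 genes on that scale.

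GLUL codes for glutamine synthetase, the enzyme that joins ammonia to glutamate. Its value was 464.01, 468.64, 482.99 and 495.91 in extract 1 to 4 and 685.28, 728.71, 771.03 and 783.96 in control 2 to 5. The groups did not overlap, and control libraries were spread more widely than extract libraries. The mean was 478 ± 14.5 in extract libraries and 742 ± 44.7 in control libraries (SD, n = 4 each), a change of −35.6%. By deposited value, with no regard to length, GLUL was the third highest tested gene in every library. It lies on chromosome 1 (182381704 to 182392206), and GENCODE 29 names 4 pseudogenes of it, to which some of its reads could be assigned.

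SLC7A11 codes for xCT, the chain of the cystine and glutamate exchanger that carries the substrates. Its value was 2.84, 2.57, 2.98 and 2.79 in extract 1 to 4 and 4.34, 4.25, 5.16 and 4.70 in control 2 to 5. Every extract library was below every control library, and the gap between 2.98 and 4.25 was 1.40 times the wider within-group range. The mean was 2.80 ± 0.170 in extract libraries and 4.61 ± 0.414 in control libraries (SD, n = 4 each), a change of −39.4%. The gene lies on chromosome 4 (138164097 to 138242349) and shares 865 exon bases with SLC7A11-AS1 on the opposite strand.

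SLC25A48 codes for a carrier of the inner mitochondrial membrane that has been tied to choline import. Its value was 5.87, 4.70, 9.37 and 7.69 in extract 1 to 4 and 21.44, 17.88, 21.14 and 19.69 in control 2 to 5. All extract libraries were lower, and they differed among themselves by more than the control libraries did, with extract 3 the highest and extract 2 the lowest. The mean was 6.91 ± 2.05 in extract libraries and 20.04 ± 1.63 in control libraries (SD, n = 4 each), so the control mean was 2.90 times the extract mean, the largest ratio of the 6 genes. The coefficient of variation (SD over mean) was 29.7% in extract libraries and 8.13% in control libraries.

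SLC25A29 codes for the mitochondrial carrier of basic amino acids such as arginine, lysine and ornithine. Its value was 4.68, 4.11, 3.92 and 4.42 in extract 1 to 4 and 6.67, 10.76, 6.73 and 5.65 in control 2 to 5. The groups did not overlap, but extract 1 and control 5 were only 0.97 apart, which is 0.19 of the control range. The mean was 4.28 ± 0.336 in extract libraries and 7.45 ± 2.26 in control libraries (SD, n = 4 each), and control 3 stood well above the other controls. Without control 3 the log2 difference was −0.48, against −0.65 with all libraries. So the 2 SLC25 carriers, both lower with the extract, were uneven in opposite groups.

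**Figure D1:**
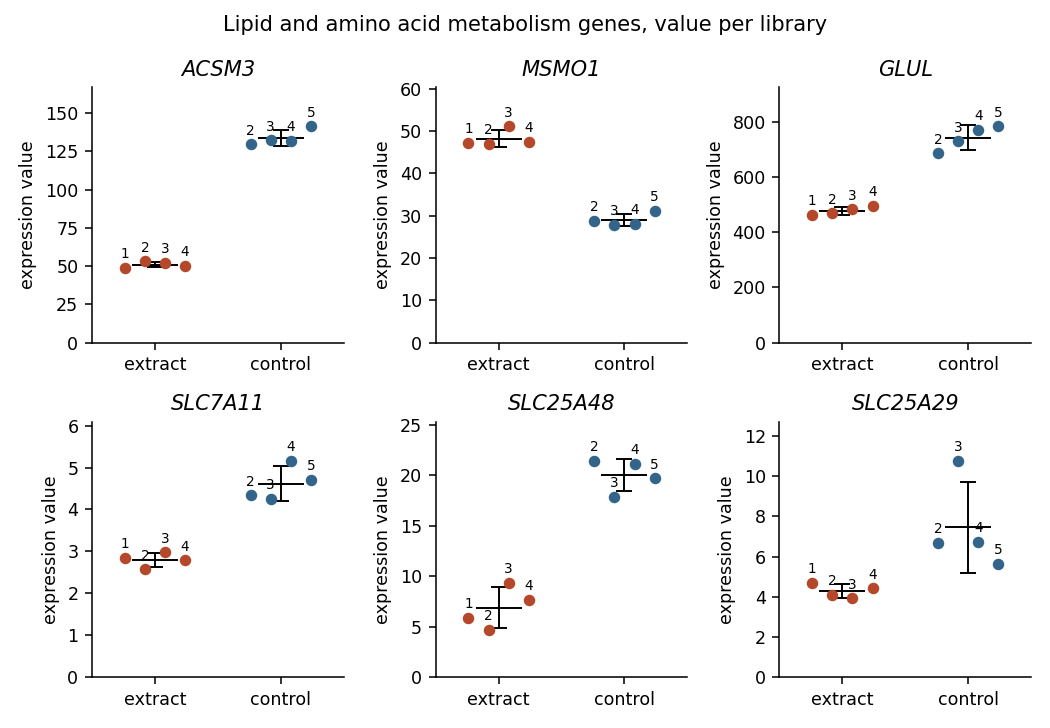
Expression value (unit not stated by the authors) of each of the 6 metabolism genes in the 4 extract and 4 control libraries, with bars for mean ± SD and digits for the library number. MSMO1 is higher in every extract library, the other 5 genes are lower in every extract library, and control 3 (10.76) stands above the other controls for SLC25A29.

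Placed among the tested genes, 4 of the 6 were among the more even ones. The coefficient of variation of ACSM3, MSMO1, GLUL and SLC7A11 lay between 3.03% and 8.97% over both groups, against medians of 18.3% in extract libraries and 17.7% in control libraries over 750 tested genes. A gene was tested here if 4 or more libraries had a value of 1 or above, and all 6 genes passed that filter. By mean value, GLUL was 3rd, ACSM3 17th, MSMO1 40th and SLC7A11 335th of the 750. Evenness was not compared among genes of like level. On the log2(value + 1) scale, which understates the change of low genes, the difference extract minus control was −1.37 ± 0.041 (SE) for ACSM3, −1.45 ± 0.18 for SLC25A48, −0.65 ± 0.17 for SLC25A29, −0.63 ± 0.044 for GLUL, −0.56 ± 0.088 for SLC7A11 and 0.71 ± 0.051 for MSMO1. The median over all tested genes was −0.50, so SLC7A11, GLUL and SLC25A29 lay near it, and ACSM3 and SLC25A48 lay further out. By ratio of means ACSM3 was 44th and SLC25A48 32nd by size among the 493 lower tested genes, and GLUL was 410th. In bulk RNA, fewer cells expressing a gene and less RNA per cell cannot be told apart.

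In limma with Benjamini-Hochberg adjustment, 82.8% of the genes tested passed an adjusted p of 0.05, 26.8% as higher and 56.0% as lower with the extract. That is 201 higher and 420 lower genes, against 228 and 241 with median centring and 222 and 251 with quantile normalization. All 6 genes were among them, 1 higher and 5 lower, and in none of the 6 did the groups overlap, as was so for 67.7% of tested genes (21.9% higher, 45.9% lower). With p-values adjusted over the 60664 genes of the authors' own family, 4 of the 6 passed, all but SLC7A11 and SLC25A29, as did 22.3% of tested genes. Ranks in that adjustment came from the 750 tested genes alone, as if every other gene had a larger p-value. Its adjusted p-values are therefore upper limits, and a call lost there might stand in the full family. Because the comparison of extract with control chose the genes, nothing is read from these counts. In the authors' deposited table all 6 had an adjusted p under 0.05, as had 45.9% of listed genes. The log2 fold changes there were −1.24 for ACSM3 and −1.51 for SLC25A48, against −1.39 and −1.54 from the group means. For MSMO1, GLUL, SLC7A11 and SLC25A29 they were 0.76, −0.62, −0.71 and −0.74, against 0.73, −0.64, −0.72 and −0.80 from the means.

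**Figure D2:**
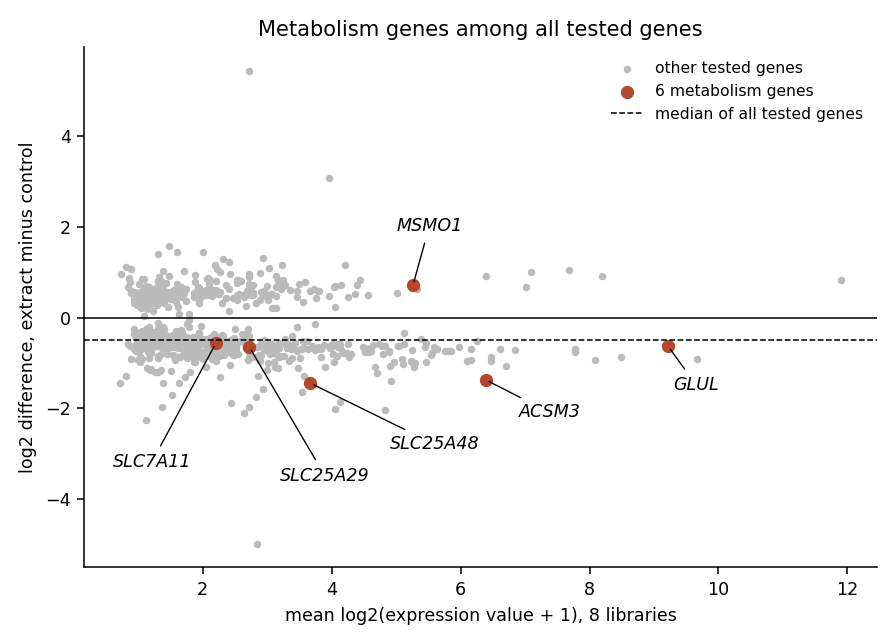
Log2 difference, extract minus control, against the mean log2(expression value + 1) over 8 libraries, for 750 tested genes (grey) and the 6 metabolism genes (red). The dashed line is the median of all tested genes (−0.50). ACSM3 and SLC25A48 lie well below it, GLUL, SLC7A11 and SLC25A29 lie close to it, and MSMO1 is above 0.

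Ratios of values within a library do not change when a whole library is scaled, and they set the genes apart from each other. The ratio of MSMO1 to GLUL was 0.102, 0.1002, 0.106 and 0.0955 in extract 1 to 4 and 0.0420, 0.0383, 0.0364 and 0.0397 in control 2 to 5. The groups did not overlap, with means of 0.101 ± 0.00427 in extract libraries and 0.0391 ± 0.00235 in control libraries (SD, n = 4 each), a 2.58-fold ratio. So in these libraries the sterol gene and the glutamine gene changed unequally whatever the scaling of a library. Both genes, like ACSM3, were chosen by their fold changes in the same libraries. A ratio that lies apart between the groups is therefore a description and no independent evidence. The ratio of MSMO1 to ACSM3 was 4.36 times as high in extract libraries. The ratio of SLC7A11 to GLUL overlapped between groups, at 0.00585 ± 0.000346 in extract libraries and 0.00621 ± 0.000382 in control libraries. The ratio of SLC25A48 to ACSM3 also overlapped, at 0.136 ± 0.0398 in extract libraries and 0.150 ± 0.0151 in control libraries. These pairs of lower genes were thus lower to a degree that their spread does not separate.

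For each of the 6 genes, the 2 tested genes with the closest profile over the 8 libraries were looked up among 530 named genes. Closeness is the root mean square difference between log2(value + 1) profiles, each with its own mean subtracted. It takes in the difference between extract and control, for which all candidates and the 6 genes were picked. A small distance thus reflects in part a difference of like size and direction, and shared regulation was not tested. Most tested genes were lower with the extract, so many candidates lay far from MSMO1, which was higher. Nearest to MSMO1 were TXNIP, an arrestin-like regulator of glucose uptake (0.062), and FHDC1, a formin-like gene (0.066), where the median candidate was at 0.65. TXNIP was at 162 ± 2.62 in extract libraries and 102 ± 1.77 in control libraries (SD, n = 4 each). Nearest to GLUL were RCN3, a calcium-binding protein of the endoplasmic reticulum (0.062), and the water channel gene AQP1 (0.062). Nearest to SLC7A11 were the Wnt receptor gene FZD4 (0.055) and again AQP1 (0.062), which was at 5.16 ± 0.2405 in extract libraries and 8.07 ± 0.230 in control libraries (SD, n = 4 each). A median candidate was at 0.27 from either gene.

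ACSM3 was closest to GMFG, an actin regulator of blood cells (0.10), and to C9orf135 (0.11), and C9orf135 was also close to SLC25A48 (0.205). The median candidate was at 0.49 from ACSM3, 0.57 from SLC25A48 and 0.34 from SLC25A29. The nearest gene to SLC25A48 was RANBP3-DT (0.18), a noncoding transcript whose value was 6.44, 3.81, 9.04 and 9.63 in extract 1 to 4, so that extract 2 was the lowest library for both genes. SLC25A29 was closest to SOX18, an endothelial transcription factor gene (0.083), and to CEBPB, a transcription factor gene of myeloid cells (0.10). Control 3 was the highest library for all 3 of these, at 10.76 for SLC25A29, 6.91 for SOX18 and 12.94 for CEBPB. SOX18 and CEBPB were found by closeness over these same libraries, so a shared high library follows in part from the search. The same holds for RANBP3-DT and its low extract 2. Control 5 was the lowest control library for SLC25A29, SOX18 and CEBPB, which also follows in part from the search. Their transcripts were also rich in GC, with medians of 65.9% for SLC25A29, 69.4% for SOX18 and 66.2% for CEBPB, against 54.0% over tested genes. Over the 725 tested genes with a transcript sequence, deviations correlated with GC at Pearson's r = 0.041, 0.033, 0.072 and −0.12 in control 2 to 5. These values are across genes that share their library. RCN3, also rich in GC (63.2%), was highest among the controls in control 5 (8.19). Whether GC bears on the pattern of SLC25A29, SOX18 and CEBPB was not tested.

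**Figure D3:**
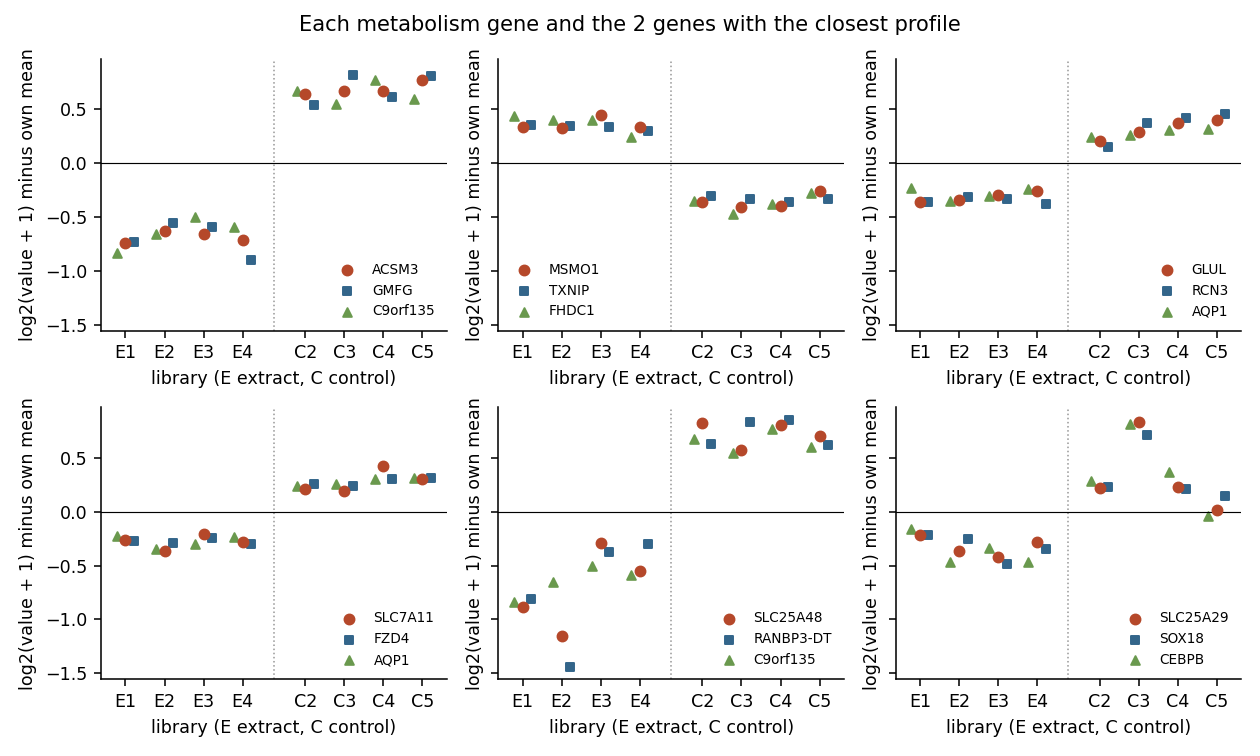
Log2(value + 1) minus the gene's own mean in each library, for each metabolism gene (circles) and the 2 named genes with the closest profile (squares and triangles), extract libraries left of the dotted line and control libraries right of it. SLC25A29, SOX18 and CEBPB share a high control 3, and SLC25A48 and RANBP3-DT share a low extract 2. A search for close profiles favours such sharing.

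Few other genes of the pathway lists, which do not hold every gene of a pathway, were in the table. The 10 pathway lists held 333 distinct genes, of which 16 were listed, 10 besides the 6 described. Of 36 genes of cholesterol synthesis and uptake MSMO1 alone was listed, and the rest were not analysed here. Likewise 1 of 26 acyl-CoA synthetases (ACSM3) and 1 of 28 enzymes of glutamine, glutamate and asparagine (GLUL) were listed. From the lists of fatty acid and glycerolipid synthesis (32 genes) and of serine, glycine, cysteine and glutathione (34 genes), 0 were listed. A change of any of these pathways as a whole is therefore not shown.

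The 2 tested genes from the list of fatty acid oxidation moved in opposite directions. Of 32 genes 3 were listed and 2 tested, and 1 of these rose and 1 fell. CPT1B, the muscle form of carnitine palmitoyltransferase, had values of 5.10, 4.49, 2.29 and 3.30 in extract 1 to 4 and 2.62, 0.88, 1.31 and 0.72 in control 2 to 5. Extract libraries were mostly higher, but control 2 lay above extract 3. CPT1B rose by 1.03 ± 0.28 (SE) on the log2(value + 1) scale (limma adjusted p = 0.00988), with 1.49 for a pseudocount of 0.1 and 1.46 from the group means. It shares 2722 exon bases with the readthrough gene CHKB-CPT1B, which is also in the table, at 0.865 ± 0.149 in extract libraries and 0.848 ± 0.273 in control libraries, and reads of both may have been split.

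CPT1C, the neuronal member of the same gene family, had values of 0.41, 0.27, 0.51 and 0.96 in extract 1 to 4 and 1.58, 2.56, 1.98 and 1.08 in control 2 to 5. The groups did not overlap, though extract 4 and control 5 were close. CPT1C fell by 0.86 on the log2(value + 1) scale (SE 0.19, limma adjusted p = 0.0047). At its low level that scale understates the change, which was −1.62 with a pseudocount of 0.1 and −1.74 from the group means. Adjusted over the 60664 genes of the authors' own family, limma gave adjusted p = 0.799 for CPT1B and adjusted p = 0.38 for CPT1C, both upper limits. Since the table lists only genes picked for a difference, neither call is independent evidence. ACOX2, a peroxisomal oxidase gene, was too low to test, at 0.15, 0, 0.49 and 0 in extract 1 to 4, and was listed at 0 in all control libraries.

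Other listed pathway genes were polyamine enzymes and transporters. Of 34 genes of arginine, choline and polyamines 2 were listed, and 0 of them passed in limma. SMOX, which codes for spermine oxidase, was at 1.32 ± 0.525 in extract libraries and 1.69 ± 0.313 in control libraries (SD, n = 4 each), with limma adjusted p = 0.228. PAOX, another polyamine oxidase gene, was at 1.41 ± 0.526 in extract libraries and 1.61 ± 0.499 in control libraries, with limma adjusted p = 0.552. The groups overlapped for both. The authors' deposited table has log2 fold changes of −0.67 for SMOX and −0.65 for PAOX, against −0.36 and −0.19 from the group means. The authors' deposited adjusted p was 0.0246 for SMOX and 0.0941 for PAOX.

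Of the 39 plasma membrane amino acid transporters in the list 2 were in the table, SLC7A11 and SLC1A7. SLC1A7, a glutamate transporter gene, was listed at 0 in all control libraries and at 0.08, 0, 0 and 0.06 in extract 1 to 4. The list does not hold every such transporter. SLC6A19, an amino acid transporter gene outside it, was tested and had a log2 difference of 0.71, opposite in direction to SLC7A11. SLC3A2, the partner chain of xCT, was not analysed here. Of 55 SLC25 carriers and relatives 3 were listed. The SLC25 gene besides the 2 described was SLC25A34, too low to test, at 0.405 ± 0.101 in extract libraries and 0.223 ± 0.0974 in control libraries. Its groups overlapped.

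Of 27 genes that ATF4 is known to switch on under amino acid shortage 4 were listed and tested, and all 4 fell in limma, SLC7A11 among them, where 56.0% of all tested genes were called lower. A gene had to differ to be listed, and SLC7A11 was chosen by its values. SLC7A11 lost its call with adjustment over 60664 genes (limma adjusted p = 0.0625, an upper limit). The others were ATF3, CEBPB and STC2, a secreted glycoprotein gene. ATF3 fell to 3.22, 3.45, 5.13 and 4.36 in extract 1 to 4, against 8.29, 8.34, 8.32 and 7.73 in control 2 to 5. STC2 fell to 4.17, 5.22, 3.71 and 5.07 in extract 1 to 4, against 8.33, 8.74, 8.12 and 10.04 in control 2 to 5. Neither gene had groups that overlapped, as was so on the lower side for 45.9% of tested genes. The limma adjusted p was 0.000479 for ATF3 and 0.000405 for STC2. CEBPB fell to 6.09, 4.72, 5.28 and 4.74 in extract 1 to 4, against 8.63, 12.94, 9.24 and 6.70 in control 2 to 5 (limma adjusted p = 0.00647), but its call was lost with median centring (adjusted p = 0.0543) and with adjustment over 60664 genes (adjusted p = 0.523). The median log2 difference of the 4 genes, which takes in SLC7A11, was −0.77, beside −0.50 over all tested genes. A common change of ATF4 targets is not shown by it. The rest of the list, with ASNS and CHAC1 among them, were not analysed here. The list does not hold every ATF4 target. ALDH1L2, such a gene outside it, was tested and had a log2 difference of −0.36.

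**Figure D4:**
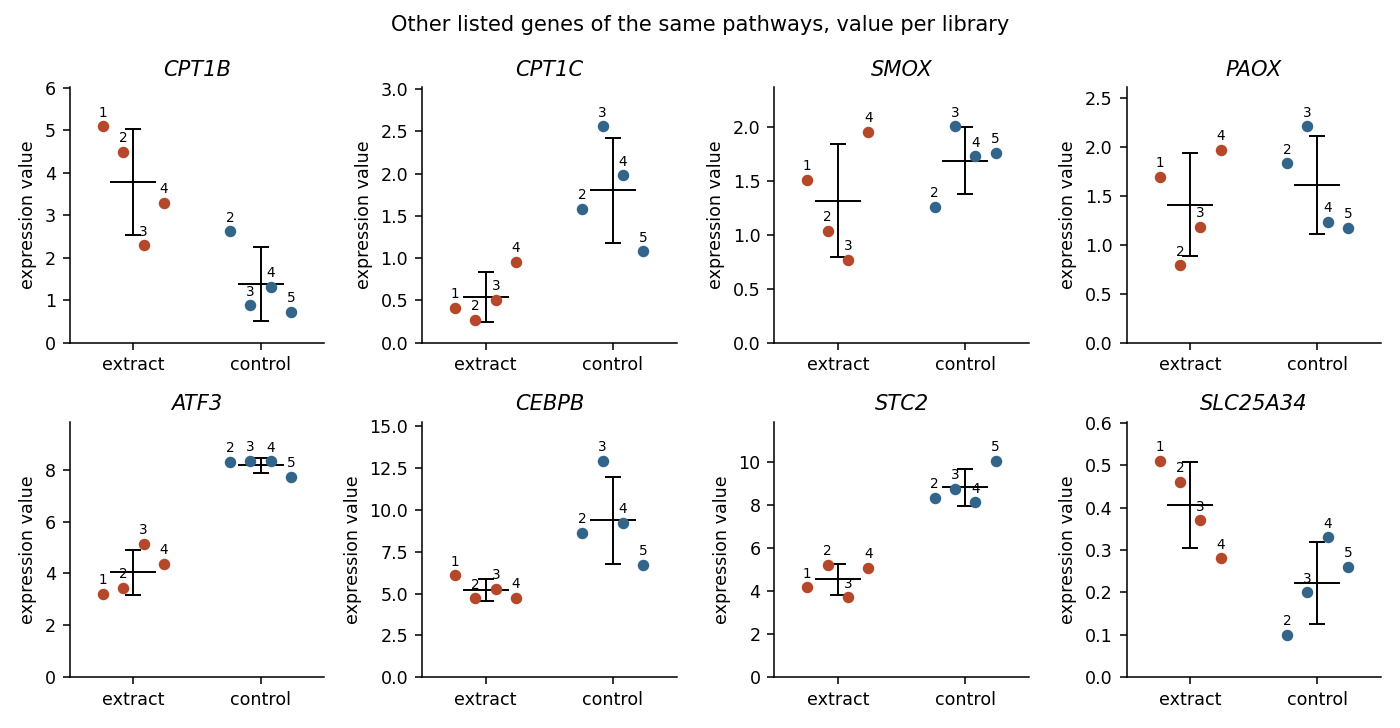
Expression value (unit not stated by the authors) of 8 other listed genes of the same pathways in the 4 extract and 4 control libraries, with bars for mean ± SD and digits for the library number. The groups are apart for CPT1C, ATF3, CEBPB and STC2 and overlap for CPT1B, SMOX, PAOX and SLC25A34.

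The annotation around the genes bears on how far their values can be told from those of other genes, since no source used here says whether the libraries kept strand. ACSM3 lies on chromosome 16 (20610243 to 20797581) and shares 867 exon bases with ERI2 and 143 with the locus AC004381.1, both on the opposite strand. AC004381.1 is itself in the table, at 0.57, 0, 1.80 and 0 in extract 1 to 4 and listed at 0 in all control libraries. SLC25A48 lies on chromosome 5 (135579202 to 135889770) and shares 642 exon bases with AC034206.1 and 260 with AC114296.1, both on the same strand, and 78 with CXCL14 on the opposite strand. SLC25A29 lies on chromosome 14 (100291111 to 100306547) and shares 693 exon bases with AL157871.1 on the opposite strand and 99 with AL157871.6 on the same strand. Reads from shared bases cannot be told apart. ERI2, AC034206.1, AC114296.1, CXCL14, AL157871.1, AL157871.6 and SLC7A11-AS1 were not analysed here.

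The differences of the 6 genes depended on the scaling more than on any single library. With each library centred on its own median over tested genes, a shift of −0.27 (log2), they were −1.10 for ACSM3, 0.98 for MSMO1, −0.37 for GLUL, −0.30 for SLC7A11, −1.18 for SLC25A48 and −0.38 for SLC25A29. Each gene kept its direction. With quantile normalization GLUL had a difference of 0.00, since it was the third highest gene in all 8 libraries and that method gives each rank 1 value. Both scalings rest on genes picked as changed, so which is nearer the truth was not tested.

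**Figure D5:**
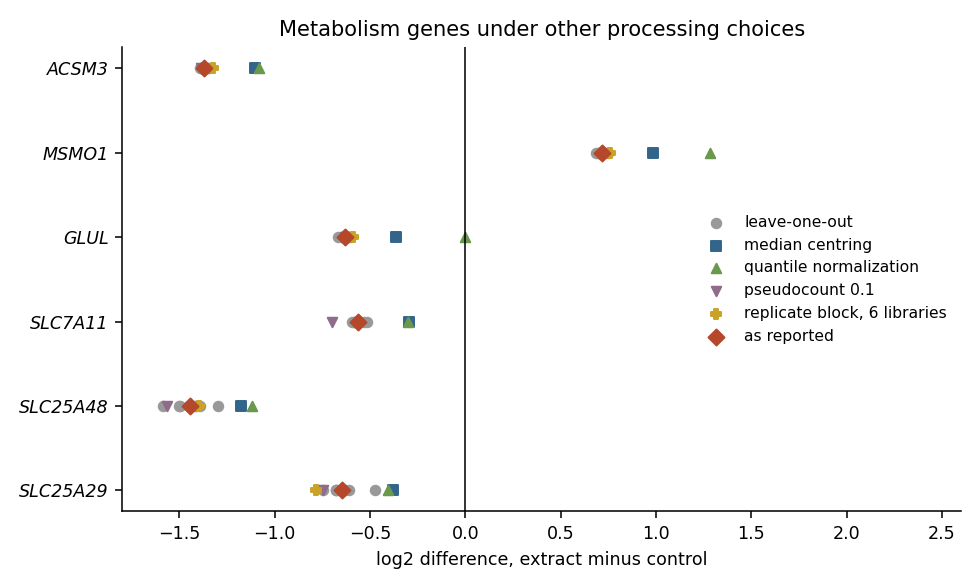
Log2 difference, extract minus control, of each metabolism gene as reported (diamonds) and under other processing choices (other symbols). ACSM3 and SLC25A48 stay below −1, MSMO1 stays above 0.68, and GLUL reaches 0.00 with quantile normalization.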

How the data were processed

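Total RNA (TRIzol) went into TruSeq libraries, per the labels' protocols. Tools named in the submitters' processing notes are HISAT2 and StringTie, on GRCh38. The authors deposited expression values per gene and library in a unit not given in the sources used here, with group means, a fold change (ratio), its log2, p-values and adjusted p-values. The sources used here give no other step. The values are not counts, so count models were not applied and the depth is unknown. Values summed over the partial list, 13114 to 14134 per library, do not measure it.

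From these values, limma 3.58.1 in R 4.3.3 was run on log2(value + 1) with trended, robust moderation over the 750 genes that reached 1 in 4 or more libraries, and calls were made at a Benjamini-Hochberg adjusted p under 0.05. The fit was also run on simulated data in which most genes did not change. That setting differs from this table of picked genes, so nothing is read from it. Alternatives were pseudocount 0.1, other filters, median centring, quantile normalization, plain moderation, adjustment over the family of 60664 genes implied by the deposited p-values (for 100% of 1379 usable genes the implied rank was whole, to within 0.02), leaving out each library, and a replicate block. In the adjustment over 60664 genes, ranks were taken among the 750 tested genes only, so its adjusted p-values are upper limits. The members and lists were chosen with earlier results of these data known. Named genes are the 6 members, listed genes of the fixed lists, and the 2 genes with the closest profile to each member, without pseudogenes or unnamed loci. CHKB-CPT1B, SLC6A19, ALDH1L2 and the loci that overlap a member were added after their values were seen. Gene positions come from GENCODE 29 on GRCh38, promoters from RefSeq.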

Additional observations from a re-analysis of the deposited data

Results flagged for a closer look

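For 3 of 52 gene and group combinations (sums of listed values included), 1 of the 4 libraries stood far from the others. Chance would give about 2.6 such cases. MSMO1 was highest in extract 3 (51.14, others 46.98 to 47.38). ATF3 was lowest in control 5 (7.73, others 8.29 to 8.34). SOX18 was highest in control 3 (6.91, others 4.34 to 4.68), the library in which SLC25A29 and CEBPB were also highest. SOX18 and CEBPB were found by the closeness of their profiles to SLC25A29, so the shared library is no separate observation. In control 3 the value of SLC25A29 (10.76) did not pass the same limit.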

How the results depend on the processing

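The 6 genes were chosen by their differences in these libraries, so a kept call is no sign of stability. ACSM3, MSMO1 and SLC25A48 were called in the same direction in all 17 alternatives, with log2 differences between −1.39 and −1.08, 0.69 and 1.28, and −1.59 and −1.12. GLUL lost its call with quantile normalization (0.00), SLC7A11 over the family of 60664 genes (−0.56), and SLC25A29 over that family (−0.65) and with median centring (−0.38). Over the family, 167 genes were called, 45 higher and 122 lower, 6 of them in the pathway lists, against 621, 201, 420 and 11. Ranks over the family came from the tested genes alone, so its adjusted p-values are upper limits and its counts lower limits. Genes called higher numbered 314 without a filter and 131 with a value of at least 1 in all 8 libraries, which test 1950 and 493 genes. Genes called lower numbered 241 with median centring and 251 with quantile normalization, with 228 and 222 higher. SMOX, not called, had log2 differences of −0.23 as reported and 0.033 with median centring. PAOX, not called, had −0.12 as reported and 0.14 with median centring, 0.016 with quantile normalization and 0.0096 without extract 2. HBZ was at 0.00 with quantile normalization, and CEBPB lost its call over the family and with median centring.

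Leaving out each library in turn gave 538 to 584 called genes, 163 to 190 higher and 369 to 394 lower, and changed no call of the 6 genes. SLC25A29 then ranged from −0.75 to −0.48, with −0.48 without control 3. Same-numbered libraries 2, 3 and 4 had deviations correlated at 0.075, 0.075 and 0.15. Without differently numbered libraries beside them, these values cannot decide whether the libraries are paired. No label says that they are, so the numbers were not taken as pairs. With a replicate block in those 6 libraries 515 genes were called, 161 higher and 354 lower, against 527 in the same libraries unblocked, a setting added after the data were seen, in which CPT1B lost its call (limma adjusted p = 0.058). Of the 12 closest profiles, 9 were shared with a pseudocount of 0.1 and 12 with median centring. No result gained a call or reversed among the 6 genes. No interval for counting error can be given because the depth is unknown.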
